A study of Homo sapiens with 8 samples.

Results

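Zinc finger genes are the largest family of human transcription factor genes, and chromosome 19 holds many of them in dense clusters. The genes described here are the protein-coding genes of chromosome 19 whose symbol is ZNF, a number and at most 1 letter. The count files held 246 of them, and the 172 with at least 80 reads summed over 8 libraries are called members below. The files list 64253 genes in all, of which 20305 were tested, and all 172 members were among these. The members just above the minimum were ZNF844 with 81 reads and ZNF274 with 86, and the genes just below it were ZNF763 with 78 and ZNF614 with 76.

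The libraries came from human colon cancer cells in 4 groups of 2 replicates. HCT-8 is the 5-FU-sensitive line and HCT-8/FU its 5-FU-resistant counterpart, where 5-FU is the chemotherapy drug 5-fluorouracil. The groups CM of HCT-8 and CM of HCT-8/FU were HCT-8 cells kept in conditioned medium (CM), which is medium in which HCT-8 or HCT-8/FU cells had grown for 48 h. Resistance is thus represented by 1 line, and both CM groups are of the sensitive line. The labels do not say that replicates were separate cultures, so p-values measure the spread between these samples, which may be technical.

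A protein of this family binds DNA through a row of C2H2 zinc fingers, each folded around a zinc ion, and most of them also carry a KRAB box near the start of the protein. The KRAB box recruits TRIM28, which brings in the histone methyltransferase SETDB1 and HP1 proteins and so silences the bound region. Many family members bind transposable elements, and the genes themselves lie side by side in clusters that grew by duplication. Because the copies are alike in sequence, reads from closely related members can be hard to place, and values of single members carry that uncertainty.

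A letter pattern for the KRAB box was found in 140 of the 172 members and in 207 of the 246 family genes. The members held between 1 and 31 C2H2 fingers by a letter pattern, with a median of 12.5. ZNF91, a repressor of SVA and L1 retrotransposons, had the highest number, 31. Members were poor in G and C. Their exonic GC content ranged from 34.7% to 70.9% with a median of 43.7%, against 49.0% for all tested genes. The member lowest in GC among those with a mean of at least 2 CPM was ZNF254 at 34.7%, followed by ZNF253 and ZNF100, and the members highest in GC were ZNF865, ZNF628 and ZNF837. Most members without the KRAB pattern lay at the upper end. Their median GC content was 60.1%, against 43.3% in the members with the pattern.

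Counts on genes ranged from 5804124 to 34881349 per library, and 0.218% to 0.303% of them fell on members. Records that were not aligned made up 19.97% to 29.6% of HCT-8 replicate 1, HCT-8/FU replicate 2 and CM of HCT-8 replicate 1, and 3.58% to 4.43% of the remaining libraries. Colon epithelial markers were present in every library, with a summed level of 9430 to 11775 CPM over 10 genes, of which CEACAM5 was low at 0.0887 to 0.836 CPM. The 12 markers of fibroblasts, leukocytes and endothelium summed to 15.04 to 25.9 CPM, and COL1A2, PTPRC and CD3E had 0 reads. The fibroblast markers COL1A1, at 8.19 to 13.8 CPM, and PDGFRB, at 4.35 to 9.04 CPM, had reads in every library and made up most of this sum.

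Most members were expressed at a low to moderate level. Levels are given as CPM, in which each count is scaled to the normalized size of its library. The mean over 8 libraries ranged from 0.449 to 86.8 CPM with a median of 10.1 CPM, against 12.2 CPM for all tested genes. Per kb of exons the order was led by ZNF787 at 23.2 CPM per kb, ZNF581 at 22.7, ZNF146 at 21.0, ZNF428 at 18.4 and ZNF575 at 13.5. All 5 lacked the KRAB pattern. ZNF146 is a short protein made almost entirely of zinc fingers. No test between genes was made.

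Of the 74 family genes below the minimum, 32 had 0 reads in all 8 libraries, 17 had 1 to 9 reads and 25 had 10 to 79. A count of 0 over all libraries allows a level of up to 0.0173 CPM, which is 3 reads of the 8 libraries together. The KRAB pattern was present in 28 of the 32. Many genes at 0 lay in stretches of neighbours, of which the longest held 11, 4 and 4 genes. Shorter ones held 2, such as ZNF667 with ZNF471, while other genes, such as ZNF177 and ZNF625, stood singly. The longest stretch ran from ZNF43 to ZNF730 (GRCh38, chr19:21804946-23147221). Of the 32 genes, 2 (ZNF177 and ZNF625) shared at least 50% of their exonic bases with another gene on the same strand, where reads can be set aside as ambiguous. Expressed members stood directly beside the silent stretch. ZNF100, with 846 reads over all libraries, is the last member before it, and ZNF724, with 683 reads, is the first after it. The plot of reads in chromosomal order shows the run of 0 reads between them.

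**Figure D1:**
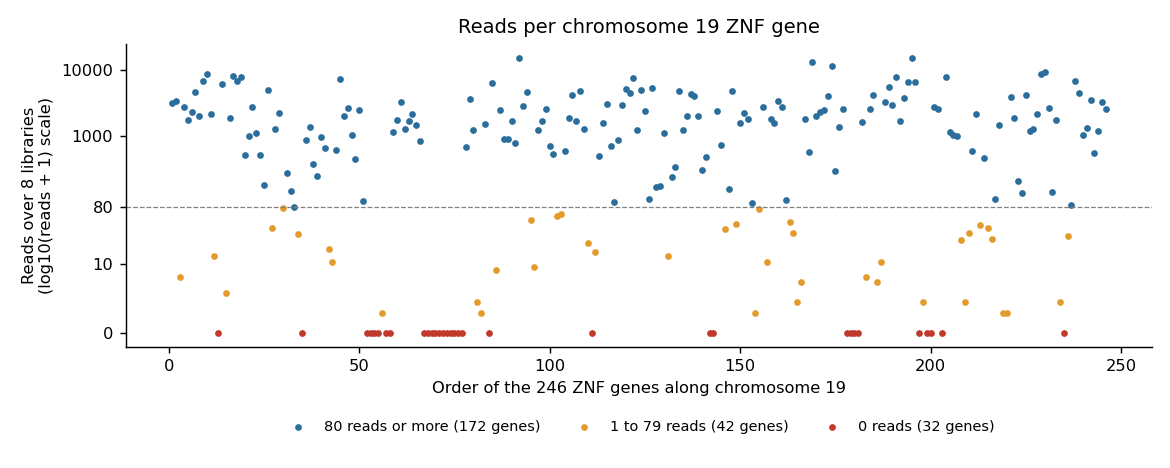
Reads summed over 8 libraries (vertical axis, log10(reads + 1) scale) for each of the 246 chromosome 19 ZNF genes in their order along the chromosome (horizontal axis). Blue points are the 172 members, orange points genes with 1 to 79 reads and red points the 32 genes at 0 reads. The dashed line marks 80 reads, and 11 red points in a row form the stretch from ZNF43 to ZNF730.

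Promoter windows at both ends of the stretch were alike. The sequences below show the 250 bases before the start of ZNF100 and ZNF43, which are neighbours with and without reads, of ZNF730 and ZNF724, the pair at the other end of the stretch, and of ZNF554, the member with the strongest decrease in HCT-8/FU. They are from RefSeq (GRCh38.p14), are written 5′ to 3′ on the strand of the gene, and have every CG dinucleotide in capitals. The windows of ZNF100, ZNF724 and ZNF554 adjoin the outer end of the gene as GENCODE annotates it, while the RefSeq starts of ZNF43 and ZNF730 lie inside the annotated gene, so that their outermost starts are not shown. These genes were chosen after their values had been seen.
ZNF100 (chr19:21767580-21767829, minus strand): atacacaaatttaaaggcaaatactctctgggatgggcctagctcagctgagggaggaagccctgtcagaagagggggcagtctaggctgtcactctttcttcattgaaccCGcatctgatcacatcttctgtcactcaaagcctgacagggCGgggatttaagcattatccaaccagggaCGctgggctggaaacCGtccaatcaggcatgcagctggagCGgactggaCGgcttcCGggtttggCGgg
ZNF43 (chr19:21836183-21836432, minus strand): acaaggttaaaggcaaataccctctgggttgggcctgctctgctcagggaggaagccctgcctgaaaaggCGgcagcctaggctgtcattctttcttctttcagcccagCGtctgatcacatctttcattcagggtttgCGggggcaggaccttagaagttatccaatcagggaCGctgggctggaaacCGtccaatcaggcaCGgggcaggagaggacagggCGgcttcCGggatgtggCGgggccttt
ZNF730 (chr19:23116775-23117024, plus strand): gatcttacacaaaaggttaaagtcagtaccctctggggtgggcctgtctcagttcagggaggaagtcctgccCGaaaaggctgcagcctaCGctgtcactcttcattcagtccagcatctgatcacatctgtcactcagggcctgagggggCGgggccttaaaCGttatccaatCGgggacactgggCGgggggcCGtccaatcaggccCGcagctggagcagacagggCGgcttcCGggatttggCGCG
ZNF724 (chr19:23250395-23250644, minus strand): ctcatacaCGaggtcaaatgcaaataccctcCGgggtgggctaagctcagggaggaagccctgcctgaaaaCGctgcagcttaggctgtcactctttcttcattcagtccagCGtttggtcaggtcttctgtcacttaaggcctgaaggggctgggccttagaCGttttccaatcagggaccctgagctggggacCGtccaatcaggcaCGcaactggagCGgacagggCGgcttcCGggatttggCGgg
ZNF554 (chr19:2819618-2819867, plus strand): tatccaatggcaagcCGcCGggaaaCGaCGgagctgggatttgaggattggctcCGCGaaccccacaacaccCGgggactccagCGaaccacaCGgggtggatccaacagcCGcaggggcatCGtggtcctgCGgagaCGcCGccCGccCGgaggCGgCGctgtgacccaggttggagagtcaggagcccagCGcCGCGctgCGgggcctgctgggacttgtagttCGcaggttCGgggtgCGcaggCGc
In a global alignment, ZNF100 and ZNF43 were identical in 203 of 259 aligned columns, or 78.4%, and shared a run of 35 bases. ZNF724 and ZNF730 were identical in 80.6% of columns. The 4 genes of this region were identical to each other in 78.1% to 80.6% of columns and to ZNF554 in 45.7% to 49.4%. The pairs of 1 expressed and 1 silent gene were as alike as the other pairs of this region, at 78.1% to 80.6%.

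CG dinucleotides were frequent in promoters of the family. RefSeq windows of 300 bases, of which 250 lie before the start, were found for 151 of the 172 members and 65 of the 74 genes below the minimum. The median number of CG was 20 in members, 20 in all genes below the minimum, 16 in the 25 matched genes at 0 reads and 14 over all 27305 windows. At least 10 CG were present in 96.0% of the members' windows and in 56.0% of all windows. The letters CCAATCAGG, read from the printed sequences and searched on both strands, stood in 17.2% of the members' windows, in 44% of those of genes at 0 reads and in 1.198% of all windows. Between 20 and 24 Mb, where the silent stretch lies, they stood in 9 of 10 windows of members and in 9 of 11 windows of genes at 0 reads. A match is a description of the letters and not a bound site.

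The first comparison addressed the difference between the resistant and the sensitive line. More members were higher in HCT-8/FU than lower. Of 172 members, 49 were called higher and 16 lower, where a call needs a Benjamini-Hochberg FDR of at most 0.05 in edgeR's quasi-likelihood test together with a log2 fold change of 0.58 or more in size. Over all 20305 genes, 13.2% were called higher and 8.12% lower. The median log2 fold change of the members was 0.29, against 0.0082 over all tested genes. In cultured cells measured in bulk, fewer cells of a kind and less RNA per cell cannot be told apart. Without HCT-8/FU replicate 1, 32 members were called higher. With groups of 2 libraries, lack of overlap alone is common. Between the lines it occurred with higher values in 32.7% of all genes and with lower values in 32.3%, between the CM groups in 26.9% and 34.5%, and between CM of HCT-8 and HCT-8 in 27.2% and 27.1%.

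The direction followed the GC content of the member. Of the 111 members under 45% GC, 49 were called higher and 1 lower, with a median log2 fold change of 0.62. Of the 22 members at 55% GC or more, 10 were called and all 10 were lower, with a median of −0.55. Of the 39 members in between, 5 were called, again all lower. Spearman's correlation across the 172 members between GC content and log2 fold change was −0.73, and across 19857 genes it was −0.40. Genes share the same 8 libraries, so these values are descriptions.

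The plot of change against GC content sets the members beside other protein-coding genes. The 3163 protein-coding genes of like GC content, whose GC content lay between the members' quartiles of 41.1% and 47.0%, had 536 genes called higher and 159 lower with a median of 0.13. The 58 members lowest in GC had a median log2 fold change of 0.89, where other genes at the GC content of each member had a median of 0.44. The 57 members highest in GC had a median of −0.35, against −0.13. Of all 172 members, 99 lay above the median of genes within 1 percentage point of their own GC content. ZNF genes on other chromosomes had 69 called higher and 19 lower of 222, with a median of 0.17. The other 825 protein-coding genes of chromosome 19, which are rich in GC as a group, had 13 called higher and 187 lower with a median of −0.38.

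**Figure D2:**
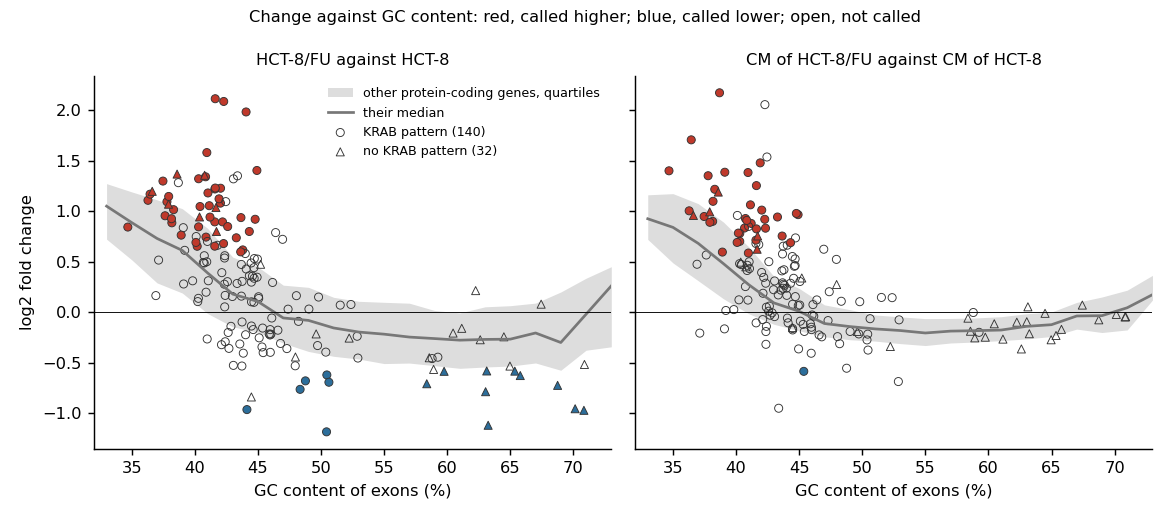
log2 fold change of each member (vertical axis) against the GC content of its exons in percent (horizontal axis), for the comparison of the lines (left) and of the CM groups (right). Circles are the 140 members with the KRAB pattern and triangles the 32 without it, red marks members called higher and blue members called lower, and the grey line and band are the median and quartiles of other protein-coding genes. In both panels called-higher members lie under 45% GC. Of all 172 members, called or not, 99 on the left and 111 on the right lie above the median of genes within 1 percentage point of their GC content.

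The libraries themselves differed in how members followed GC content. Members under 45% GC had a median deviation from their mean over all libraries of −0.23 and −0.14 on the log2 scale in the replicates of HCT-8 and of 0.48 and 0.40 in the resistant line. In CM of HCT-8 the values were −0.33 and −0.35, and with medium of the resistant line they were 0.15 and 0.16. These medians lay close together within a group and did not overlap between the groups compared. For members at 55% GC or more the median deviation was −0.38 and −0.39 in HCT-8/FU and between 0.0059 and 0.24 in the libraries of the other groups. Over all 19857 genes the Spearman correlation of GC content with a library's deviation was −0.49 and −0.45 in HCT-8/FU and 0.052 and 0.21 in HCT-8. In CM of HCT-8 it was 0.37 and 0.53, while CM of HCT-8/FU had −0.065 and −0.062. A trend with GC content that arose in the cells and one that arose when the libraries were made cannot be told apart here.

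**Figure D3:**
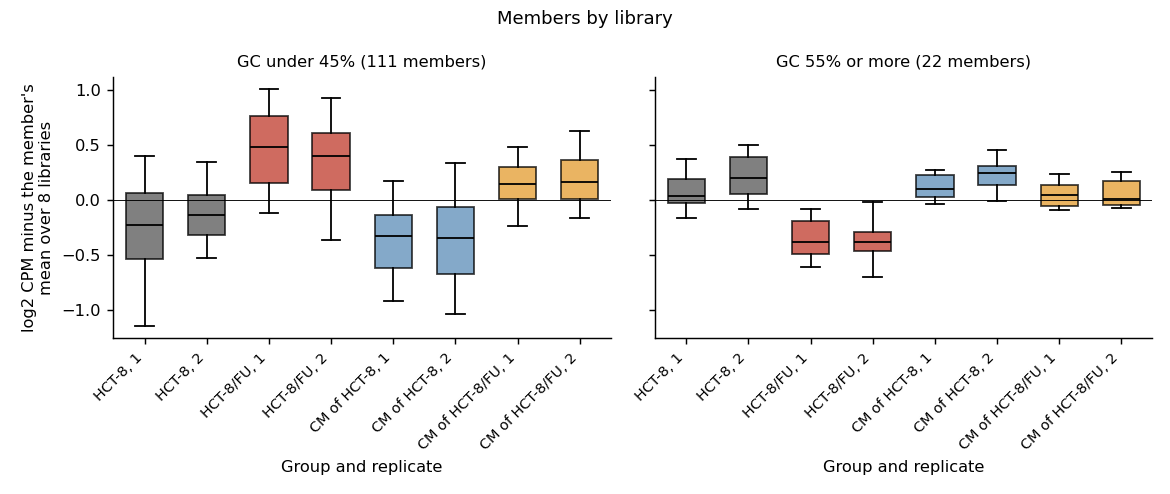
Deviation of log2 CPM from the member's mean over 8 libraries (vertical axis) in each library (horizontal axis, group and replicate), for the 111 members under 45% GC (left) and the 22 members at 55% GC or more (right). Boxes span the quartiles with the median as a line, and whiskers reach the 5th and 95th percentiles. The HCT-8/FU libraries are highest in the left panel, with medians of 0.48 and 0.40, and lowest in the right panel.

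Each library was therefore also corrected for GC content and gene length, which takes out the trend with them over all genes, whatever its origin. After the correction 18 members were higher in HCT-8/FU and 14 were lower, against 7.28% and 8.06% of 19857 genes, and the median log2 fold change of the members was 0.081. All 18 had been called higher without the correction, while 5 of the 14 (ZNF699, ZNF426, ZNF562, ZNF383 and ZNF264) had not been called before it. The 18 higher members were ZNF69, ZNF431, ZNF724, ZNF675, ZNF507, ZNF850, ZNF790, ZNF585A, ZNF221, ZNF180, ZNF649, ZNF600, ZNF28, ZNF816, ZNF845, ZNF765, ZNF761 and ZNF470. Within the members a correlation with GC content was left, with Spearman's rho at −0.48. Of the members 10.5% were thus higher and 8.14% lower after the correction. The 3163 protein-coding genes of like GC content had 9.04% and 9.86%, and the 222 ZNF genes on other chromosomes 14.9% and 4.05%.

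Members with and without the KRAB pattern differed in composition, and their calls are given side by side. Of the 140 members with the KRAB pattern, 42 were higher and 6 lower, and of the 32 without it, 7 were higher and 10 lower. After the correction the counts were 16 higher and 10 lower with the pattern, and 2 higher and 4 lower without it. Over all genes 13.2% were called higher and 8.12% lower, and 7.28% and 8.06% after the correction. The median log2 fold change was 0.35 with the pattern, where other genes at the members' GC content had 0.15. Without the pattern these medians were −0.36 and −0.22. Only 8 members without the pattern were under 45% GC, and 7 of these were called, all of them higher. The 103 members with the pattern under 45% GC had 42 higher and 1 lower. No test of the difference between these sets was made.

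The 6 members that led the increase in HCT-8/FU were ZNF724, ZNF845, ZNF69, ZNF507, ZNF345 and ZNF761. ZNF724 (ENSG00000196081, chr19:23221599-23250394, minus strand), a KRAB member with 14 fingers beside the silent stretch, was at 1.45 CPM in both replicates of HCT-8, at 6.65 and 5.68 CPM in HCT-8/FU, at 2.30 and 2.03 CPM in CM of HCT-8, and at 5.07 and 5.09 CPM in CM of HCT-8/FU. The libraries of HCT-8/FU stood above those of every other group, with those of CM of HCT-8/FU next. Its log2 fold change between the lines was 2.11 ± 0.27 (SE, n = 2 per group, edgeR adjusted p = 2.12e-05) and remained 1.78 after the correction. Of its exonic bases 44.7% are shared with another gene on the same strand, so its counts rest on the remaining part.

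ZNF845 (ENSG00000213799, chr19:53333749-53356906, plus strand), with 26 fingers among the longest arrays of the family, was at 4.61 and 5.32 CPM in HCT-8 and at 16.6 and 13.0 CPM in HCT-8/FU. The CM libraries followed the same split, with 4.95 and 3.77 CPM in CM of HCT-8 against 10.5 and 11.4 CPM in CM of HCT-8/FU. The groups did not overlap in either comparison. Its log2 fold changes were 1.58 ± 0.20 between the lines (edgeR adjusted p = 1.87e-05) and 1.38 ± 0.20 between the CM groups (edgeR adjusted p = 0.00018). After the correction they were 1.17 and 1.02, and both remained called.

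ZNF507 (ENSG00000168813, chr19:32345594-32387667, plus strand), which lies alone on the long arm and lacks the KRAB pattern, had the smallest standard error of the 6. It was at 20.9 and 21.9 CPM in HCT-8, at 59.5 and 49.98 CPM in HCT-8/FU, at 19.7 and 18.3 CPM in CM of HCT-8 and at 43.5 and 42.3 CPM in CM of HCT-8/FU. HCT-8 and CM of HCT-8 lay near each other, well below the other groups. The log2 fold change between the lines was 1.37 ± 0.11 (edgeR adjusted p = 2.65e-07), and 0.76 after the correction. ZNF761 rose from 14.1 and 15.2 CPM to 40.6 and 32.8 CPM (log2 fold change 1.34, edgeR adjusted p = 4.06e-06) and ZNF69 from 3.42 and 4.29 CPM to 11.96 and 8.36 CPM (1.40, edgeR adjusted p = 0.0002). ZNF345, at 1.45 and 1.83 CPM in HCT-8 and 3.82 and 5.35 CPM in HCT-8/FU, was not called once the libraries were corrected (edgeR adjusted p = 0.074).

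The members that led the decrease were ZNF554, ZNF581, ZNF628, ZNF555, ZNF837 and ZNF653. ZNF554 (ENSG00000172006, chr19:2819868-2836735, plus strand) was at 25.7 and 24.3 CPM in HCT-8 and at 11.9 and 8.86 CPM in HCT-8/FU. The CM groups lay in between, at 15.1 and 21.1 CPM in CM of HCT-8 and at 17.2 and 14.8 CPM in CM of HCT-8/FU, and overlapped each other. The log2 fold change between the lines was −1.19 ± 0.18 (edgeR adjusted p = 8.26e-05), and −1.11 after the correction.

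ZNF581 (ENSG00000171425, chr19:55635459-55645623, plus strand), whose GC content is 63.2%, was at 51.5 and 54.9 CPM in HCT-8 and at 26.9 and 20.4 CPM in HCT-8/FU (log2 fold change −1.12 ± 0.12, edgeR adjusted p = 3.02e-06). It was at 39.6 and 37.4 CPM in CM of HCT-8 and at 33.7 and 32.4 CPM in CM of HCT-8/FU. Of its exonic bases 24.9% are shared on the same strand, where its neighbour ZNF580 overlaps it. ZNF628 fell from 19.6 and 22.9 CPM to 10.2 and 12.5 CPM (−0.97, edgeR adjusted p = 0.00015), and ZNF555 from 33.05 and 25.8 CPM to 14.3 and 15.7 CPM (−0.97, edgeR adjusted p = 7.66e-05). ZNF555 was at 18.4 and 19.55 CPM in CM of HCT-8 and at 18.3 and 17.2 CPM in CM of HCT-8/FU, all below HCT-8. ZNF554, ZNF581, ZNF628 and ZNF555 kept their call after the correction, as did ZNF837 with an edgeR adjusted p of 0.011. ZNF653 did not (edgeR adjusted p = 0.18), and its call was lost in 9 of 19 alternative settings.

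**Figure D4:**
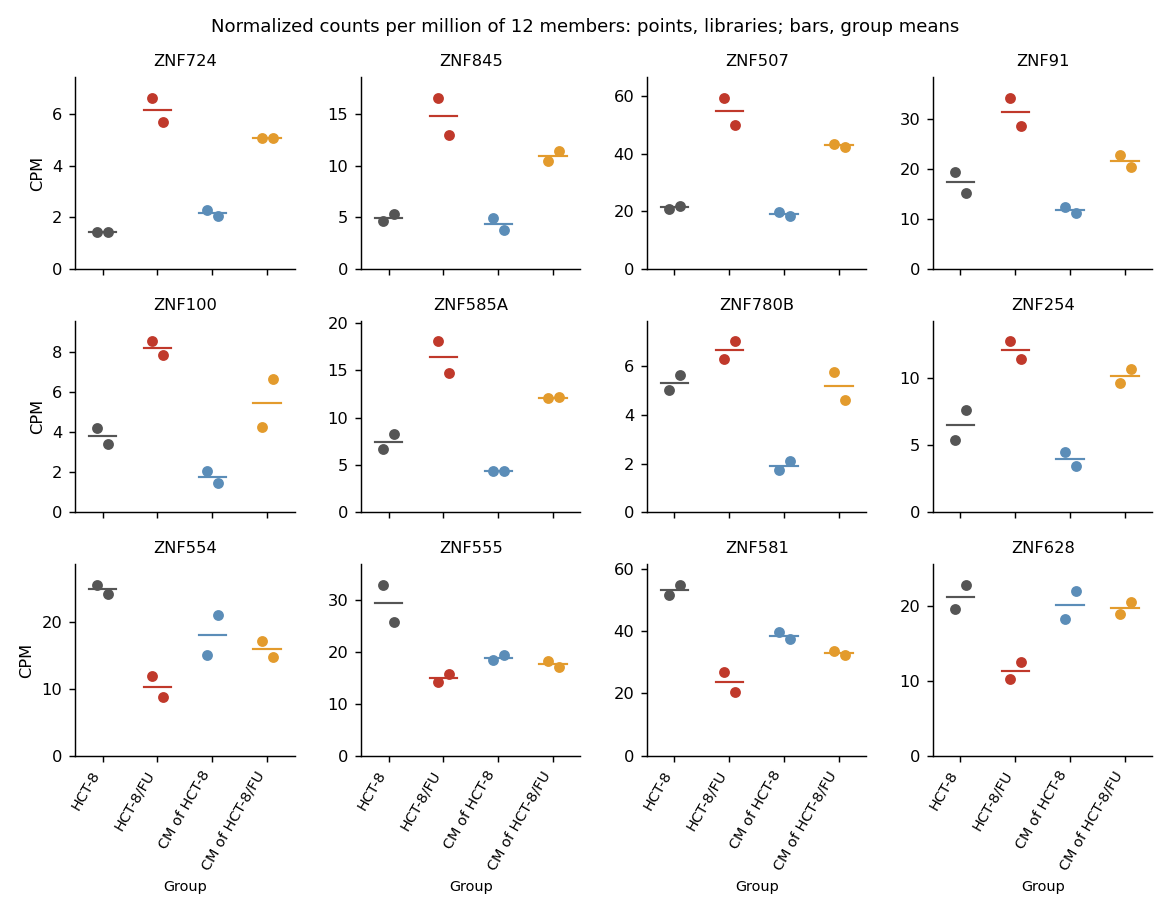
CPM (vertical axis, from 0) of 12 members in the 4 groups (horizontal axis), with points for libraries and bars for the means of 2 replicates. ZNF724, ZNF845, ZNF507 and ZNF91 are high in the resistant line and in the cells given its medium, while ZNF554, ZNF555, ZNF581 and ZNF628 are lowest in HCT-8/FU.

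Along the chromosome the members fell into 17 runs, where neighbouring starts are under 1 Mb apart. Over all genes 13.2% were called higher between the lines, and 7.28% after the correction. The run from ZNF724 to ZNF254 (chr19:23221599-24129968) held 4 members, ZNF724, ZNF91, ZNF675 and ZNF254, and all 4 were called higher, of which 2 after the correction. In the run from ZNF430 to ZNF100 (chr19:21020634-21767579), 6 of 8 members were called, all higher, and 1 after the correction. In the run from ZNF577 to ZNF761 (chr19:51804816-53461862), 12 of 24 members were called, all higher, and 7 after the correction. In the run from ZNF565 to ZNF573 (chr19:36182276-37817300), 9 of 19 were higher and 1 lower, and 3 and 1 after the correction. In the run from ZNF575 to ZNF296 (chr19:43525497-45076478), 6 of 21 were called, all higher, and 2 after the correction.

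Of the 16 members called lower, 11 lay in the first and the last run, at the ends of the chromosome. The last run alone holds 43 of the 172 members. Among all members 9.30% were lower, against 8.12% of all genes, and 8.14% against 8.06% after the correction. The share of members called lower thus lay near that of all genes. In the run nearest the start of the short arm (chr19:2819868-2944971), ZNF554, ZNF555 and ZNF77 of 4 members were lower, with and without the correction, and ZNF57 had a log2 fold change of −0.22 without a call. ZNF77 was at 14.5 and 13.8 CPM in HCT-8 and at 8.34 and 8.19 CPM in HCT-8/FU. It was at 8.40 to 9.37 CPM in the CM libraries, so HCT-8 stood apart from all other groups. In the run at the end of the long arm, from ZNF628 to ZNF446 (chr19:55476617-58481230), 8 of 43 members were lower and 1 higher. After the correction 6 were lower and 1 higher. The median GC content of the 4 members of the first of these runs was 47.2%, and other genes at their GC content had a median log2 fold change of −0.049 against −0.87 in these members. In the run at the end of the long arm the median GC content was 48.0%, and these medians were −0.068 and −0.26. In the run from ZNF557 to ZNF846 (chr19:7069703-9793180), 2 of 12 members were lower and 1 higher, and after the correction 4 and 0. Its median was −0.34, where other genes at the members' GC content had 0.12.

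The second comparison addressed the effect of medium from resistant cells, with medium from HCT-8 as the control. Here 40 members were called higher in CM of HCT-8/FU and 1, ZNF101, lower. Over all tested genes 7.97% were called higher and 1.28% lower. ZNF genes on other chromosomes had 53 called higher and 1 lower of 222. That is 23.9% higher, near the 23.3% of the members. The median log2 fold change of the members was 0.21, against −0.059 over all tested genes and 0.047 over the protein-coding genes of like GC content, of which 235 were higher and 37 lower. Of the 111 members under 45% GC, 40 were called, all higher, with a median of 0.49. The 22 members at 55% GC or more had a median of −0.11. Without CM of HCT-8/FU replicate 1, 26 members were called higher.

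After the correction 11 members were higher and 2 lower, against 2.65% and 2.16% of all genes, with a median log2 fold change of 0.076. The 11 were ZNF69, ZNF100, ZNF724, ZNF507, ZNF585A, ZNF780A, ZNF577, ZNF808, ZNF28, ZNF845 and ZNF765, and the 2 lower were ZNF101 and ZNF738. Of the members 6.40% were thus higher, against 9.01% of the 222 ZNF genes on other chromosomes and 3.04% of the 3163 genes of like GC content. In the run from ZNF577 to ZNF761, 11 of 24 members were higher as counted and 5 after the correction, where all 172 members had 40 and 11.

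The members that led the increase were ZNF100, ZNF585A, ZNF254, ZNF780B, ZNF845 and ZNF441. ZNF100 (ENSG00000197020, chr19:21722771-21767579, minus strand), whose promoter is printed above, was at 2.07 and 1.47 CPM in CM of HCT-8 and at 4.27 and 6.65 CPM in CM of HCT-8/FU. It was at 4.21 and 3.40 CPM in HCT-8 and at 8.54 and 7.86 CPM in HCT-8/FU, so that the lowest libraries were those of CM of HCT-8. The log2 fold change between the CM groups was 1.71 ± 0.30 (edgeR adjusted p = 0.00079), and 1.07 after the correction. Other genes at its GC content of 36.4% had a median of 0.78.

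ZNF585A (ENSG00000196967, chr19:37106734-37172741, minus strand) was at 4.37 and 4.33 CPM in CM of HCT-8 and at 12.03 and 12.2 CPM in CM of HCT-8/FU (log2 fold change 1.48 ± 0.18, edgeR adjusted p = 3.89e-05). It was at 6.71 and 8.25 CPM in HCT-8 and at 18.1 and 14.7 CPM in HCT-8/FU. Replicates lay close together and none of the groups compared overlapped. ZNF780B (ENSG00000128000, chr19:40028260-40056231, minus strand) moved between the CM groups, from 1.73 and 2.11 CPM to 5.74 and 4.61 CPM (log2 fold change 1.38, edgeR adjusted p = 0.0011). Its level in HCT-8, 5.00 and 5.65 CPM, was near that in HCT-8/FU, 6.28 and 7.02 CPM. ZNF254, the member lowest in GC, had a log2 fold change of 1.40 (edgeR adjusted p = 0.00025), where other genes at its GC content had a median of 0.85. Neither ZNF780B nor ZNF254 kept the call after the correction, with edgeR adjusted p values of 0.051 and 0.064. ZNF441, at 1.04 and 1.28 CPM in CM of HCT-8 and at 3.37 and 2.76 CPM in CM of HCT-8/FU, was lost as well (edgeR adjusted p = 0.17).

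ZNF101 (ENSG00000181896, chr19:19668796-19683509, plus strand) was at 20.3 and 20.7 CPM in CM of HCT-8 and at 14.6 and 12.6 CPM in CM of HCT-8/FU. Its log2 fold change was −0.59 (edgeR adjusted p = 0.015), just past the fold threshold, and the call was lost in 9 of 19 alternative settings.

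The first and the second comparison share no library. Of the 73 members called in either, 33 were higher in both, which is 33 of the 49 members higher in HCT-8/FU and 33 of the 40 higher in CM of HCT-8/FU. Over all tested genes, 1319 of the 4843 called in either were higher in both. No member was called in opposite directions or lower in both by edgeR. After the correction 7 members were higher in both: ZNF69, ZNF724, ZNF507, ZNF585A, ZNF28, ZNF845 and ZNF765. The plot of both comparisons shows them.

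**Figure D5:**
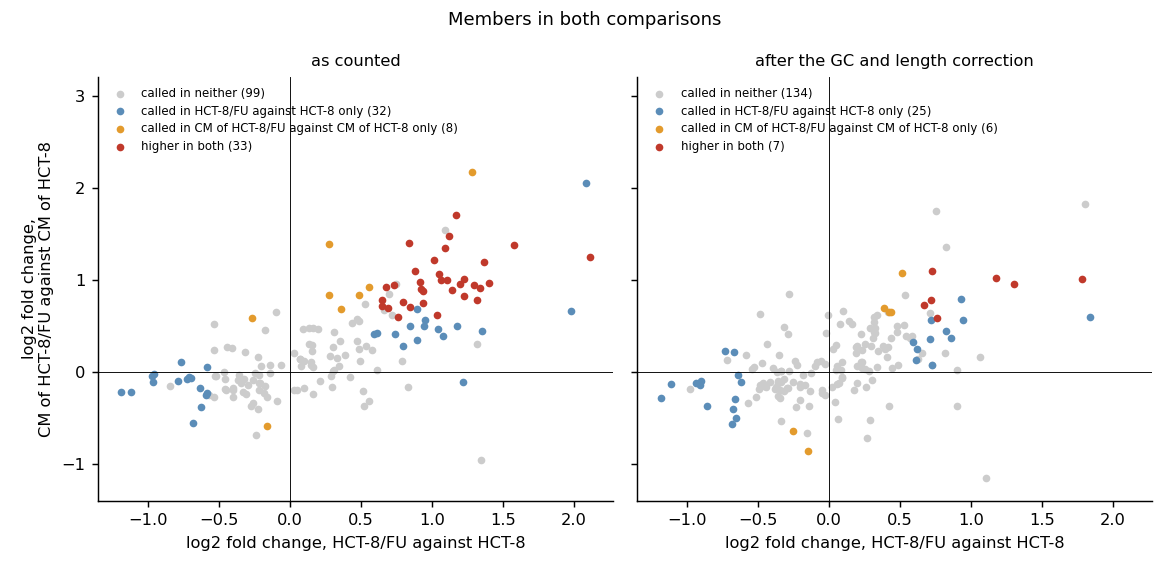
log2 fold change of the comparison of the CM groups (vertical axis) against that of the lines (horizontal axis) for 172 members, as counted (left) and corrected for GC and length (right). Colours mark in which comparison a member was called, and red points are members higher in both, 33 on the left and 7 on the right.

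ZNF28 and ZNF765, named here after their values were seen, both lie in the run from ZNF577 to ZNF761. ZNF28 was at 12.1 and 9.05 CPM in HCT-8, at 22.3 and 19.2 CPM in HCT-8/FU, at 9.55 and 6.93 CPM in CM of HCT-8 and at 15.7 and 17.4 CPM in CM of HCT-8/FU. ZNF765 was at 10.1 and 10.3 CPM in HCT-8, at 21.5 and 16.0 CPM in HCT-8/FU, at 7.14 and 9.61 CPM in CM of HCT-8 and at 16.6 and 17.4 CPM in CM of HCT-8/FU. In both genes the libraries of the groups compared did not overlap.

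Whether a member changed by the same amount between the lines and between the CM groups was tested in the same fit, as the difference of its log2 fold changes. It was called for 10 members, 9 of which had the lower value in the comparison of the lines. Of the members 0.58% were higher and 5.23% lower, against 3.55% and 4.14% of all genes, so the lower share lay near that of all genes. ZNF554, ZNF555, ZNF77, ZNF628 and ZNF581 were 5 of the 10 and kept the call after the correction. All 5 were lower, which is 2.91% of the members, where 3.25% of all genes were higher and 3.5% lower. Without CM of HCT-8/FU replicate 1, 2 members had a lower value by this test. Leaving out replicate 2 of that group or replicate 1 of HCT-8/FU gave 4 each.

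The third comparison set HCT-8 cells in their own conditioned medium against HCT-8, and shares libraries with both of the others. Few members were called here. ZNF580 was called higher and 10 members lower, against 3.86% and 4.29% of all genes, so that the 5.81% of members called lower lay near the share of all genes. The median log2 fold change was −0.14, against 0.014 over all tested genes. The protein-coding genes of like GC content had 93 higher and 150 lower and a median of −0.070. Spearman's correlation of the members' log2 fold change with GC content was 0.32. After the correction ZNF738 was higher and 6 members were lower, against 2.76% and 2.72% of all genes. Without HCT-8 replicate 1, 5 members were called lower.

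The members that led this decrease were ZNF780B, ZNF100, ZNF699, ZNF254, ZNF585A and ZNF460. ZNF780B fell from 5.00 and 5.65 CPM in HCT-8 to 1.73 and 2.11 CPM in CM of HCT-8 (log2 fold change −1.45 ± 0.26, edgeR adjusted p = 0.0012), and −1.19 after the correction. ZNF699 was at 16.9 and 14.5 CPM in HCT-8 and at 6.68 and 9.04 CPM in CM of HCT-8 (−0.93, edgeR adjusted p = 0.0026), and ZNF460 at 8.56 and 6.71 CPM and at 4.03 and 4.33 CPM (−0.82, edgeR adjusted p = 0.022). These 3 and ZNF585A kept the call after the correction. ZNF100 and ZNF254 did not, with edgeR adjusted p values of 0.099 and 0.19. ZNF580 rose from 15.01 and 16.3 CPM to 23.0 and 28.2 CPM (0.72, edgeR adjusted p = 0.0016), and after the correction its log2 fold change of 0.51 was under the fold threshold. ZNF77 and ZNF555, called lower in HCT-8/FU, were also called lower here. Their log2 fold changes were −0.72 (edgeR adjusted p = 0.0055) and −0.60 (edgeR adjusted p = 0.0068), and ZNF77 kept the call after the correction.

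Members with a known role differed among themselves. ZNF91 (ENSG00000167232, chr19:23304991-23395471, minus strand) was at 19.4 and 15.2 CPM in HCT-8, at 34.2 and 28.4 CPM in HCT-8/FU, at 12.3 and 11.1 CPM in CM of HCT-8 and at 22.8 and 20.3 CPM in CM of HCT-8/FU. It was called higher in both comparisons with the resistant line or its medium (log2 fold changes 0.92 and 0.90, edgeR adjusted p = 0.00014 and 0.00049). After the correction the values were 0.30 and 0.28, under the threshold, and other genes at its GC content of 38.1% had medians of 0.69 and 0.57. ZNF93, which represses L1 elements, was near the limit of detection, at 0.263 and 0.325 CPM in HCT-8 and at 1.03 and 1.84 CPM in HCT-8/FU (log2 fold change 2.09, edgeR adjusted p = 0.029). That call was lost in 6 of 19 alternative settings.

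ZNF146 was at 71.1 and 69.0 CPM in HCT-8, at 129 and 112 CPM in HCT-8/FU, at 68.1 and 49.9 CPM in CM of HCT-8 and at 93.9 and 101 CPM in CM of HCT-8/FU. It was called higher in both comparisons (log2 fold changes 0.80 and 0.75, edgeR adjusted p = 8.62e-05 and 0.00033), and the corrected values of 0.48 and 0.50 were under the fold threshold. ZNF224, known as a repressor of the aldolase A gene, had log2 fold changes of 0.31 and 0.43, below the threshold, with 25.04 to 28.04 CPM in HCT-8 and 32.2 to 32.9 CPM in HCT-8/FU. ZNF587 and ZNF417, paralogs that bind endogenous retroviruses, were not called in any of the 3 comparisons. Their log2 fold changes between the lines were −0.40 ± 0.10 and 0.10 ± 0.15.

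ZNF420, a regulator of p53, had log2 fold changes of 0.75 and 0.96 without a call (edgeR adjusted p = 0.12 and 0.083) at 1.19 to 4.85 CPM. ZNF350, a partner of BRCA1, and ZNF274, which recruits SETDB1 to ZNF genes themselves, had 94 and 86 reads over all libraries. Their standard errors in the first comparison were 0.78 and 0.90 on the log2 scale, so a change of the size seen in ZNF845 was not detectable at this depth. ZNF787, the highest member per length, was at 89.1 and 97.2 CPM in HCT-8 and at 62.7 and 61.8 CPM in HCT-8/FU (log2 fold change −0.59, edgeR adjusted p = 4.96e-05), and its call was lost in 8 of 19 alternative settings, where the value fell under the fold threshold.

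The KRAB box acts through other proteins, and 39 genes of this machinery and of chromatin silencing were tested. In HCT-8/FU 11 of them were called, all higher, with a median log2 fold change of 0.10. After the correction 5 were higher, with a median of 0.026. Over all genes 13.2% were called higher, and 7.28% after the correction. In CM of HCT-8/FU 7 were called, all higher, with a median of −0.15. After the correction 3 were higher, with a median of −0.17, where all genes had 7.97% and then 2.65% higher. In CM of HCT-8 1 was higher and 3 lower, against 3.86% and 4.29% of all genes. After the correction 2 were higher and 1 lower, against 2.76% and 2.72%. Most genes of the list were not called. TRIM28 itself was at 360 and 374 CPM in HCT-8 and at 251 and 274 CPM in HCT-8/FU. Its log2 fold change was −0.49 ± 0.07 (edgeR adjusted p = 9.6e-05), under the fold threshold. SETDB1 had log2 fold changes of −0.32 and −0.29, also under it.

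The genes called higher in both comparisons were ATF7IP, the stabilizing partner of SETDB1, SENP7, a SUMO protease, TASOR of the HUSH silencing complex, MORC3, the chromatin remodelers ATRX and SMARCAD1, and the histone methyltransferase SUV39H2. All 7 were under 45% GC, and after the correction no gene of them was called in both. TASOR and SUV39H2 then remained higher in HCT-8/FU, and SENP7, ATRX and SMARCAD1 in CM of HCT-8/FU. ATRX was at 59.9 and 57.8 CPM in HCT-8, at 165 and 128 CPM in HCT-8/FU, at 35.4 and 28.8 CPM in CM of HCT-8 and at 96.4 and 95.4 CPM in CM of HCT-8/FU. This is the order of groups seen in ZNF100 and ZNF254. Its corrected log2 fold changes were 0.52 and 0.72.

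CBX3, CBX5, MPHOSPH8 and UHRF1 were called higher in HCT-8/FU and not between the CM groups. CBX5, an HP1 protein, was at 128 and 113 CPM in HCT-8 and at 301 and 319 CPM in HCT-8/FU (log2 fold change 1.37 ± 0.08, edgeR adjusted p = 1.38e-08), and 0.91 after the correction. UHRF1, which maintains DNA methylation, was at 22.8 and 26.7 CPM in HCT-8, at 80.4 and 98.6 CPM in HCT-8/FU, at 68.0 and 79.1 CPM in CM of HCT-8 and at 70.8 and 63.0 CPM in CM of HCT-8/FU. HCT-8 stood below all other groups. Its GC content was 55.8%, and its log2 fold change between the lines was 1.81 as counted and 2.02 after the correction. The difference of these changes between the lines and the CM groups was called for CBX5 (0.99, edgeR adjusted p = 3.64e-05) and UHRF1 (1.95, edgeR adjusted p = 4.2e-06). CBX1, another HP1 protein, was called higher between the lines after the correction only, with a log2 fold change of 0.52 as counted and 0.61 corrected, and was named after its values were seen. Its difference between the lines and the CM groups was 0.84 (edgeR adjusted p = 0.00095).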

How the data were processed

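mRNA was captured on beads, sequenced as paired 150-base reads, aligned by the authors to GRCh38 with HISAT2 and counted per gene with HTSeq 0.11.2 on an Ensembl annotation. The deposited values are raw counts per gene, and the strand setting of the counting was not stated. The lines that name no gene were kept out of library sizes. The share of records without a feature was 33.7% to 49.6%, ambiguous records 1.15% to 1.57%, and records aligned more than once 2.24% to 3.48%. The authors' DESeq2 tables hold fold changes and p-values of their own comparisons and were not used.

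Counts were fitted in edgeR 4.0.16 (R 4.3.3) with group means of 4 groups over 8 libraries, TMM normalization with HCT-8 replicate 2 as reference, and filterByExpr. P-values are from the quasi-likelihood test, adjusted by Benjamini-Hochberg over all tested genes. The standard error was taken as the absolute log2 fold change over the root of F. Positions, exonic GC content, length and overlaps between genes came from GENCODE 44, of the same build but another annotation release than the one used for counting. The GC and length correction used, per library, a spline with 5 degrees of freedom in each as an offset. KRAB boxes and C2H2 fingers were found by letter patterns in the translated canonical coding sequence.

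The members and lists were chosen with earlier results of these data known. Genes named were, per comparison and direction, the 6 called members with the largest log2 fold change among those with a mean of at least 2 CPM and no overlap between libraries, the 5 highest per length, members with known roles, those at the read minimum and those at the ends of GC content. Corepressor genes named were those called in any of the 3 comparisons of groups before correction, with TRIM28 and SETDB1. The median chi-square of members' counts between replicates was 1.04 to 1.70, where sampling noise gives 0.455, and replicates were kept separate. Replicate numbers are shared by the groups, but deviations of same-numbered libraries correlated at −0.086 for the lines, −0.028 for the CM groups and 0.13 for the third comparison, so they were not taken as pairs. Alternatives were other normalizations, filters, DESeq2 1.42.0, a replicate block, the groups compared only, no fold threshold, a term for the 3 libraries in which over 15% of the records were not aligned, the correction above, and leaving out each library. The procedures were tested on simulated data with planted log2 fold changes of 1 or 1.5 in size and a spread that was set, not taken from these libraries. Without a GC trend 39.5% were recovered, with 4 calls of genes without a planted change. With a GC trend in HCT-8/FU, 42% were recovered uncorrected, with 361 such calls. The corrected fit recovered 36.5%, with 4.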

Additional observations from a re-analysis of the deposited data

Results flagged for a closer look

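For 10 members the change between the lines differed from the change between the CM groups in edgeR's quasi-likelihood test of the difference, with Benjamini-Hochberg adjustment. Of the members 0.58% were higher and 5.23% lower by this test, against 3.55% and 4.14% of all genes. The share of members called lower thus lay near that of all genes. The run at the start of the short arm held 3 of the 10 members. The difference was −0.97 for ZNF554 (edgeR adjusted p = 0.017), −0.86 for ZNF555 (edgeR adjusted p = 0.01) and −0.87 for ZNF77 (edgeR adjusted p = 0.022), on the log2 scale. ZNF77 was at 14.5 and 13.8 CPM in HCT-8 and between 8.19 and 9.37 CPM in all libraries of the other groups.

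Of the GC-rich members, the difference was −0.92 for ZNF628 (edgeR adjusted p = 0.0091), −0.91 for ZNF581 (edgeR adjusted p = 0.002), −0.65 for ZNF526 (edgeR adjusted p = 0.011) and −0.65 for ZNF358 (edgeR adjusted p = 0.035). ZNF358 was at 24.9 and 33.1 CPM in HCT-8, at 17.9 and 18.2 CPM in HCT-8/FU, and at 27.05 to 30.4 CPM in the CM libraries. For ZNF584 the difference was −0.63 (edgeR adjusted p = 0.043).

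ZNF77 and ZNF699 had log2 fold changes of opposite sign, but neither was called in opposite directions. For ZNF77 they were −0.77 between the lines and 0.11 ± 0.16 between the CM groups, where it was not called (edgeR adjusted p = 0.70). For ZNF699 they were −0.27 ± 0.18 between the lines, without a call (edgeR adjusted p = 0.29), and 0.58 between the CM groups. Its difference was −0.85 (edgeR adjusted p = 0.045). ZNF850 was the only one of the 10 with a larger value between the lines, 1.08 against 0.39, a difference of 0.69 (edgeR adjusted p = 0.047). It was at 9.74 and 9.82 CPM in HCT-8, at 20.5 and 20.9 CPM in HCT-8/FU, at 11.05 and 13.1 CPM in CM of HCT-8 and at 17.2 and 14.98 CPM in CM of HCT-8/FU.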

How the results depend on the processing

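No call of a named member changed sign in any alternative. Between the lines and between the CM groups, the counts of members called higher were lowest with the GC and length correction, with or without a replicate block. With the correction, HCT-8/FU against HCT-8 had 18 higher members and a median log2 fold change of 0.081, and the CM groups had 11 higher, 2 lower and a median of 0.076. CM of HCT-8 against HCT-8 had 6 lower and a median of −0.091, and the difference between the first and second comparison was higher for 0 members and lower for 5, with 21 members at an unadjusted p under 0.05. Among the 108 changes of named members, 22 lost and 2 gained a call with the correction.

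The shared replicate numbers were not taken as pairs. With a replicate block, 48 members were higher and 14 lower between the lines, 41 and 1 between the CM groups, and 1 and 11 in the third comparison. The difference between the first 2 comparisons was then higher for 0 members, where ZNF850 lost its call, and lower for 9. Block and correction together gave 18 higher and a median of 0.11 between the lines, 11 higher, 2 lower and a median of 0.081 between the CM groups, 4 lower and a median of −0.093 in the third comparison, and 0 higher and 5 lower for the difference.

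With TMM referred to CM of HCT-8 replicate 2, the lines had 10 lower members and a median of 0.38, while the median over all genes moved to 0.099, and the CM groups had 0 lower and a median of 0.29. ZNF101, lower between the CM groups, also fell out with DESeq2's size factors (0 lower, median 0.25), no filter (0), DESeq2 (0, median 0.26) and the groups compared only (0, median 0.29). A term for the not aligned share gave 2 lower and a median of 0.14 there and 2 higher in the third comparison. Without a fold threshold, 27 members were lower between the lines, 4 between the CM groups and 21 in the third comparison, where 3 were higher. In the third comparison the median was −0.20 by DESeq2 and −0.19 under its size factors, and 4 were lower in the groups compared only. The difference was higher for 0 members with DESeq2's size factors, no filter and DESeq2 (25, 29 and 21 members at an unadjusted p under 0.05).

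Leaving out each library in turn gave 32 to 50 higher and 13 to 17 lower members between the lines (median 0.14 to 0.29), 26 to 44 higher and 0 to 2 lower between the CM groups (0.13 to 0.29), 0 to 3 higher and 5 to 13 lower in the third comparison (−0.19 to −0.11), and 0 to 2 higher and 2 to 13 lower for the difference. Of the members higher between the lines, 27 of 49 kept the call in all 8 fits, as did 19 of 40 between the CM groups. The lowest counts came without HCT-8/FU replicate 1 (32), CM of HCT-8/FU replicate 1 (26) and HCT-8 replicate 1 (5). With 1 library left in a group, that library is assumed to vary like the others. The fit of only the groups compared holds all 4 groups for the difference and was not run again. Depth limits the members with under 100 reads, whose standard errors in the 3 comparisons of groups were up to 0.9 on the log2 scale and larger for the difference.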
